A study of Mus musculus with 6 samples.

Results

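The 35 genes described here are the genes of blood coagulation and fibrinolysis that were listed by symbol for this account, and all 35 were found among the 56674 rows of the count table. They fall into 7 groups by role, from the fibrinogen chains and Fgl1 to the enzymes of the vitamin K cycle. All 35 passed the filter on low counts and were among the 18284 genes tested. The samples are livers of male C57BL/6 mice, an inbred strain in wide laboratory use, which were kept to an age of 71 weeks on chow with polypropylene microplastic (PP-MP, 3 libraries) or on normal chow (control, 3 libraries). The series asks how long exposure to these particles bears on hepatic gene expression. The protocol field of all samples mentions PS-MP instead, so the diets are taken from the sample titles and characteristics. The labels name no dose, no batch and no separate animals for the replicates, so a p-value here weighs a difference against a spread between samples that may be technical.

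The liver makes most of the plasma proteins of clotting. Thrombin, made from prothrombin, cuts fibrinogen into fibrin, factor XIII crosslinks the fibrin, and plasmin, made from plasminogen, dissolves it. Antithrombin, heparin cofactor II and the protein C system hold the cascade back, and several factors work only after a vitamin K-dependent carboxylation in the hepatocyte. Fibrinogen is also a classical acute phase protein, whose genes respond to interleukin-6 through STAT3 and C/EBP factors.

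Total counts per library were 81073738 to 100252360 with PP-MP and 68357478 to 112566641 in control. The 18S ribosomal RNA share was 0.655 to 0.750% with PP-MP and 1.15 to 11.2% in control, with the highest share in control 2. The mitochondrial share was 11.6 to 16.5% with PP-MP and 14.9 to 16.4% in control. The summed level of 9 hepatocyte markers, in CPM (counts scaled to a common library size by trimmed mean of M-values factors, TMM), was 73991 to 85569 with PP-MP and 68178 to 85922 in control, so hepatocyte transcripts were abundant in all 6 libraries. Albumin (Alb) made up most of that sum in each library. Singly, 4 of the 9 were fitted higher and 5 lower, with log2 fold changes (PP-MP over control) from −0.57 for Apoa2 to 1.77 for Apoa1. PP-MP 1 stood apart in acute phase genes and control 2 in ribosomal RNA. Some fold changes are also given without PP-MP 1, and the closing section gives some without both.

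The promoters of the fibrinogen chains are shown because the chains are coordinately made and because their levels moved together across libraries. The stretches are the 150 bases before each gene's annotated start, from RefSeq on build GRCm38.p6, written 5′ to 3′ on the gene's own strand. Fga lies at chr3:83026003-83026152 (+), Fgb at chr3:83049864-83050013 (−) and Fgg at chr3:83007574-83007723 (+). Capitals mark CTGGGAA, the core of an interleukin-6 response element.
Fga: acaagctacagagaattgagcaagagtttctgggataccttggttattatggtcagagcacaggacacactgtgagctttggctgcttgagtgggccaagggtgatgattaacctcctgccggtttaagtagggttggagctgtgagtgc
Fgb: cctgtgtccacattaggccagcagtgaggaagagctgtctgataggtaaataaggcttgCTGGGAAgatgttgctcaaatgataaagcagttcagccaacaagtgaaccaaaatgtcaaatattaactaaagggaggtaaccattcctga
Fgg: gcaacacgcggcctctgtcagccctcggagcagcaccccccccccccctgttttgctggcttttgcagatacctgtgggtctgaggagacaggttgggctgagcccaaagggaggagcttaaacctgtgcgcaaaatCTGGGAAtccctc
The motif CTGGGAA, searched on both strands (TTCCCAG on the other) from 250 bases before to 50 bases after the start, began at −91 in Fgb and at −13 in Fgg. It had no match in the Fga window, which says only that these letters are not there. Of the 35 genes, 27 had a window in the table, and 6 of these (22.2%) held the motif, against 11.1% of all 32851 windows and 12.7% of the 27025 symbols. The other matches began at −76 in Tfpi, at −82 in F9, at 12 and 38 in Vtn and at 18 in Kng2. An HNF1 motif was matched only in F13b, at −55, against 0.399% of all windows. The HNF4 motif CAAAGTCCA and the C/EBP motif TTGCGCAA were matched in 0 of the 27 windows, against 0.475% and 0.183% of all windows. A match is a description of letters, not of binding, and overlaps between motifs were not counted. Plat, Plg, Serpina10, Thbd, Kng1, Plau, Fgl1 and Proc were not among the matched windows.

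Across the 35 genes no level passed the test between diets, and 2 genes, Fgl1 and Serpinc1, lay higher in all 3 PP-MP libraries than in any control library. By edgeR's quasi-likelihood test with Benjamini-Hochberg adjustment over all genes, 0 of 35 were called higher and 0 lower, against 0.00547% of the 18284 genes tested in each direction and 0.0109% in either. At an unadjusted p under 0.05, 2 were higher and 0 lower, against 8.05% and 5.81% of all genes. By DESeq2, 1 gene (Fgl1) was called higher and 0 lower, against 2.38% and 1.87% of all genes, and limma-voom called 0. The 2 genes without overlap compare with 12.2% of all genes that did not overlap upward, and the 0 downward with 9.79%. These shares are near or below the background. The fitted change was positive for 22 genes and negative for 13, with a median log2 fold change (PP-MP over control) of 0.09, against 0.03 over all genes tested. Without PP-MP 1 the median of the 35 was −0.02. For 25 of the 35 genes (71.4%) the 95% interval lay within 2-fold in either direction, against 46.3% of all genes. These 2 shares are not of like genes, since intervals tend to be wider at low counts. An average of 10 CPM or more was reached by 29 of the 35, against 6676 of the 18284 genes tested.

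**Figure D1:**
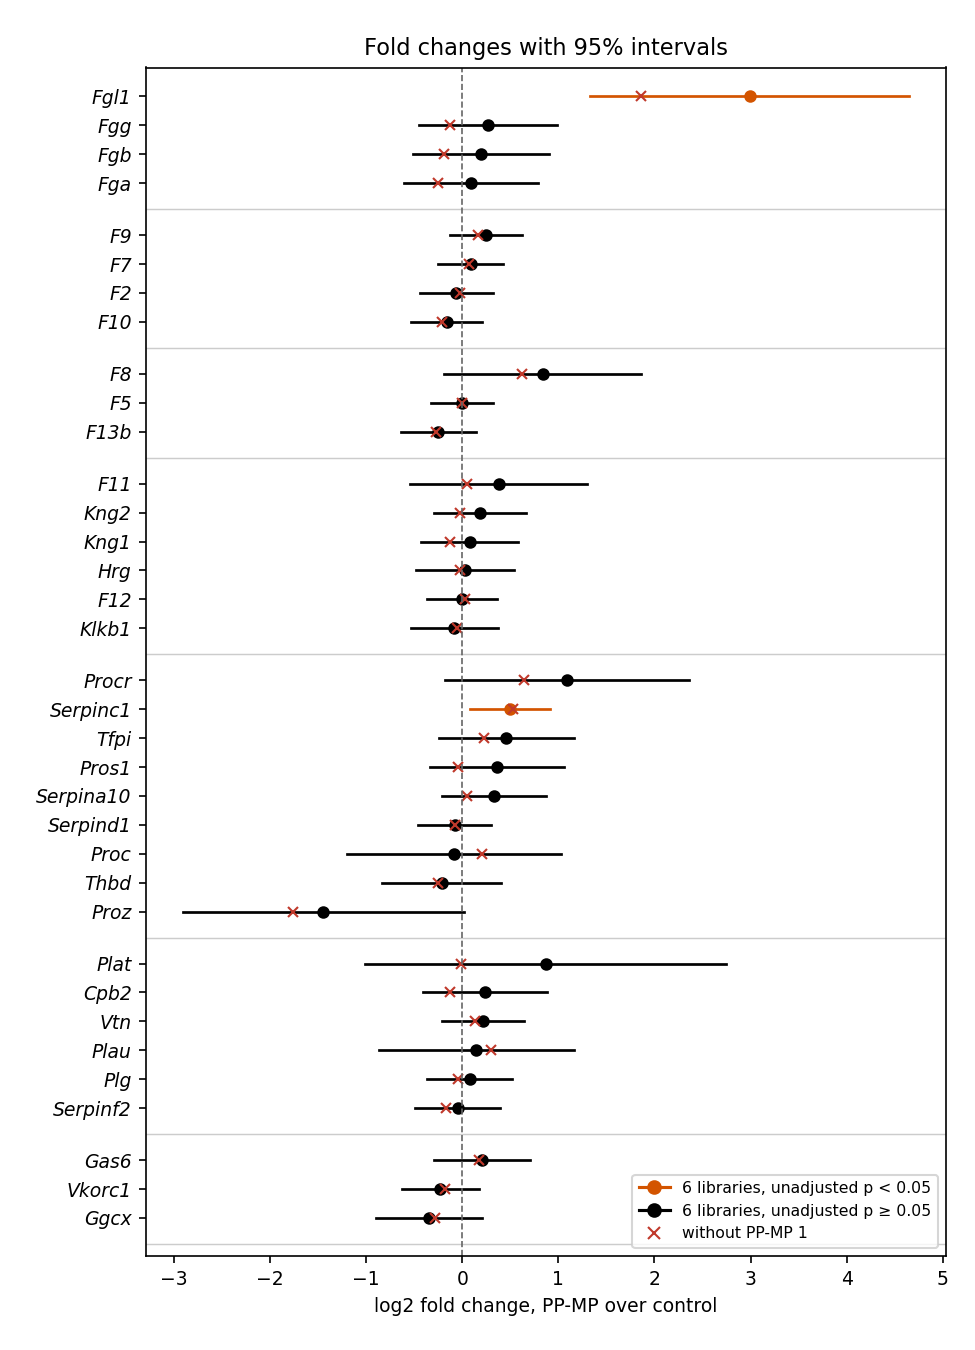
Log2 fold change, PP-MP over control, for each of the 35 genes grouped by role, with 95% intervals from edgeR (points and lines) and the estimate without PP-MP 1 (crosses). Orange marks Fgl1 and Serpinc1, the 2 genes with an unadjusted p under 0.05; the intervals of the other 33 genes include 0.

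The fibrinogen chains were among the most abundant of these transcripts, and their mean levels did not differ between diets beyond the spread. Fga, the alpha chain, had 4177, 2633 and 1989 CPM in PP-MP 1, 2 and 3, against 3054, 2662 and 2558 CPM in control 1, 2 and 3. Fgb, the beta chain, had 4456, 2563 and 2110.1 CPM with PP-MP, against 2778, 2647 and 2549.6 CPM in control. Fgg, the gamma chain, had 3404, 1938 and 1564 CPM with PP-MP, against 1989, 1894 and 1865 CPM in control. In all 3 genes PP-MP 1 was the highest of the 6 libraries and PP-MP 3 the lowest, so the diets overlapped, while the control libraries lay close together. PP-MP 1 was at 1.51, 1.68 and 1.78 times the control mean for Fga, Fgb and Fgg, and PP-MP 3 at 0.721, 0.794 and 0.816 times. The log2 fold changes were 0.09 (SE 0.29) for Fga, 0.20 (SE 0.30) for Fgb and 0.26 (SE 0.30) for Fgg, with edgeR adjusted p values of 0.913, 0.789 and 0.712. Without PP-MP 1 all 3 turned, to −0.26, −0.19 and −0.13.

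The ratios between chains moved far less than the chains themselves. Per kilobase of exonic length, the Fgg to Fgb ratio was 1.37 ± 0.021 with PP-MP and 1.31 ± 0.016 in control (SD, n = 3 each; exact permutation test, two-sided p = 0.1, the smallest that 3 against 3 can give). The Fga to Fgb ratio was 1.23 ± 0.064 with PP-MP and 1.31 ± 0.069 in control (exact p = 0.3). The Fgg to Fgb ratio was higher in each PP-MP library than in any control library, and the Fga to Fgb ratio overlapped. Which chain lies highest depends on the length used, since over coding length the Fga to Fgb ratio was 0.591 with PP-MP and 0.632 in control. The transcripts of the 3 chains share 0 stretches of 50 bases, so their reads can be told apart.

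Fgl1 had the largest fitted change among the 35 genes. It encodes a secreted hepatic protein of the fibrinogen family that is not a chain of fibrinogen and is known as a ligand of the immune receptor LAG-3. Fgl1 had 1253, 341 and 208 CPM in PP-MP 1, 2 and 3, against 55.7, 78.2 and 92.5 CPM in control 1, 2 and 3. All 3 PP-MP libraries were above all controls, and the PP-MP libraries differed from one another by more than the controls did. They stood at 16.6, 4.52 and 2.76 times the control mean. The mean was 601 ± 569 CPM with PP-MP and 75.5 ± 18.5 CPM in control (SD, n = 3 each). The log2 fold change was 2.99 (95% interval 1.33 to 4.65), with an unadjusted p of 0.00398 and an adjusted p of 0.212 by edgeR, and an adjusted p of 0.00013 by DESeq2. A fitted change at least that high was seen in 0.459% of the genes tested, and PP-MP libraries at least as far apart in 1.42% of 6676 genes that average 10 CPM or more. Without PP-MP 1 it was 1.86 (edgeR adjusted p = 0.335), and over all alternatives tried the adjusted p ran between 0.00013 and 0.461. Relative to Fgb in the same library, Fgl1 per kilobase was 0.147 ± 0.083 with PP-MP and 0.0246 ± 0.0070 in control (SD, n = 3 each; exact p = 0.1, a ratio chosen after the values were seen).

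Acute phase genes and markers of Kupffer cells, the resident macrophages of the liver, and of neutrophils were high in the same library. Of 21 acute phase genes 20 were tested, 19 of them were highest in PP-MP 1 (against 21.9% of all genes), and their summed level was 10358 to 40315 CPM with PP-MP and 8722 to 11315 CPM in control. The 3 most abundant over all 6 libraries were Hpx, the haem carrier hemopexin, with 12060.3, 3056 and 2575 CPM with PP-MP against 2951, 2181 and 2734 CPM in control, Hp, the haemoglobin scavenger haptoglobin, with 11303, 3139.9 and 2759 CPM against 3222, 2251 and 2961 CPM, and Itih4, an inter-alpha-trypsin inhibitor heavy chain, with 2348, 1497 and 983 CPM against 1101, 666 and 893 CPM. Hamp, the iron regulator hepcidin, was close behind Itih4 and above it in control, and averaged 985 ± 473 CPM with PP-MP and 1503 ± 202 CPM in control (SD, n = 3 each; log2 fold change −0.61, SE 0.35). The median log2 fold change of the acute phase list was 1.14, and 0.09 without PP-MP 1. That of the Kupffer cell markers was 1.18, and 0.67 without PP-MP 1, and that of the tested neutrophil markers 2.94, and 1.69 without it. Of the 9 Kupffer cell markers all 9 were highest in PP-MP 1, with a sum of 170.3 to 627 CPM with PP-MP and 128 to 170.4 CPM in control. Of the 7 neutrophil markers 4 were tested, with a sum of 3.07 to 24.5 CPM with PP-MP and 1.18 to 1.75 CPM in control, and Ly6g, Mmp8 and Mpo were at 0 in all controls. Of 8 platelet and megakaryocyte markers 6 were tested, and 5 of these were highest in PP-MP 1. They were scarce, with a sum of 4.87 to 11.7 CPM with PP-MP and 4.76 to 6.37 CPM in control. Their median log2 fold change was 0.79, and −0.15 without PP-MP 1. All 9 lymphocyte markers were fitted lower (median −0.49), and 2 of them were highest in PP-MP 1. The medians of the stellate cell and cholangiocyte markers were −0.03 and −0.14. Among the 35 coagulation genes 18 were highest in PP-MP 1. The part of these cell types and of the acute phase genes in the levels of Fgl1 and fibrinogen was not tested. In bulk tissue, a change in the number of cells of a type and a change in RNA per cell cannot be told apart.

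**Figure D2:**
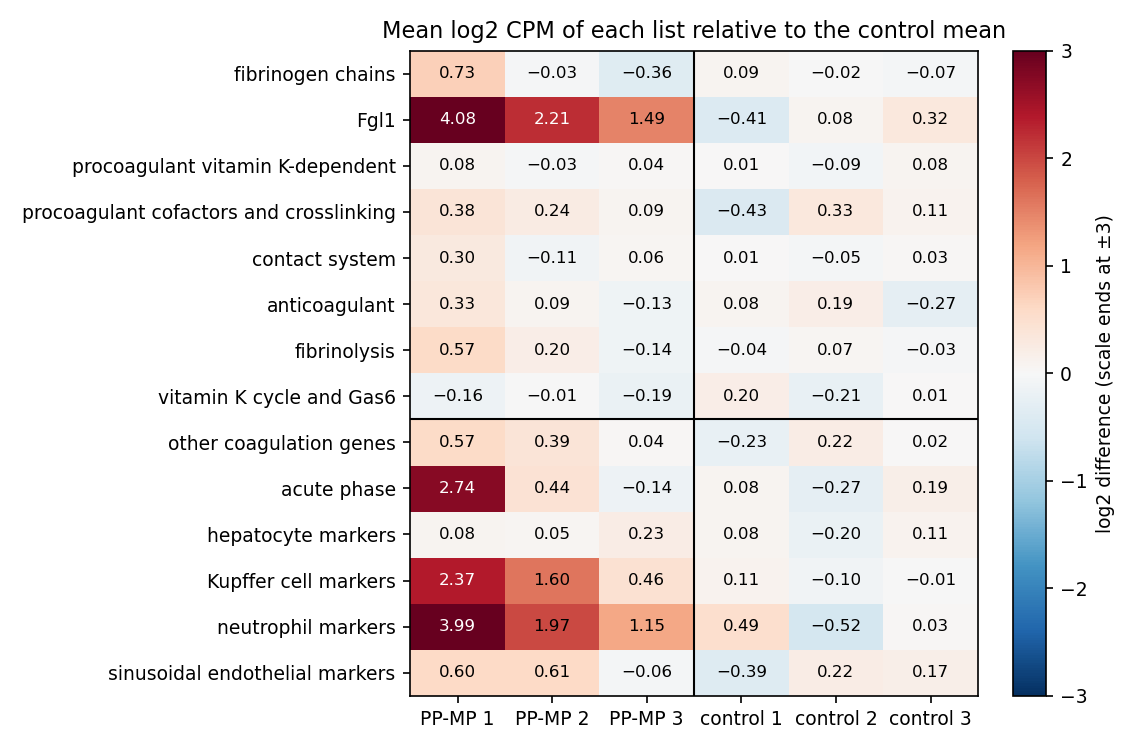
Mean log2 CPM of each gene group in each library, as a difference from the mean of the 3 controls; coagulation groups stand above the black line, other lists below it, and PP-MP libraries left of the vertical line. PP-MP 1 is highest for Fgl1 (4.08), neutrophil markers (3.99), acute phase genes (2.74) and Kupffer cell markers (2.37), while hepatocyte markers lie between −0.20 and 0.23 in all 6 libraries.

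The vitamin K-dependent procoagulant enzymes lay close together in both diets. F2, prothrombin, was the most abundant of them per kilobase and had 1244, 1370.3 and 1322 CPM in PP-MP 1, 2 and 3, against 1448, 1219.8 and 1443 CPM in control 1, 2 and 3. The diets overlapped, and the log2 fold change was −0.06 (SE 0.16). F7, the factor that tissue factor activates, averaged 64.6 ± 4.34 CPM with PP-MP and 60.8 ± 7.62 CPM in control. F9, whose loss causes haemophilia B, averaged 180.4 ± 18.0 CPM with PP-MP and 152 ± 18.0 CPM in control. F10, which cleaves prothrombin, averaged 342 ± 34.5 CPM with PP-MP and 383 ± 31.5 CPM in control (SD, n = 3 each throughout). None of the 4 separated the diets, the intervals of all 4 log2 fold changes lay within 2-fold, and the widest, for F2, ran from −0.44 to 0.32.

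Among the cofactors and the crosslinking factor, F5 had the same mean in both diets. F5, the cofactor of factor X, averaged 424 ± 3.85 CPM with PP-MP and 424 ± 23.4 CPM in control, with a 95% interval of the log2 fold change from −0.32 to 0.32. F8, the cofactor of factor IX, which is made by sinusoidal endothelial cells in the liver, averaged 10.5 ± 2.78 CPM with PP-MP and 5.88 ± 3.12 CPM in control (log2 fold change 0.84, SE 0.43, edgeR adjusted p = 0.438). The summed level of 11 sinusoidal endothelial markers was 116 to 185 CPM with PP-MP and 127 to 149 CPM in control. F13b, the carrier subunit of factor XIII, led this group per kilobase in control, though not with PP-MP, and had 141, 136 and 133 CPM with PP-MP, against 132, 183 and 173 CPM in control. The PP-MP libraries all fell inside the control range (log2 fold change −0.25, SE 0.16).

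The contact system showed no difference beyond the spread in any of its 6 genes. Kng1, a kininogen that carries bradykinin, was the most abundant per kilobase and had 2031, 1435 and 1379 CPM in PP-MP 1, 2 and 3, against 1588, 1343 and 1663 CPM in control 1, 2 and 3. PP-MP 1 was again the highest library, the diets overlapped, and the log2 fold change was 0.08 (SE 0.21). Kng2, its mouse paralog, averaged 237 ± 53.7 CPM with PP-MP and 208 ± 22.0 CPM in control. The transcripts of Kng1 and Kng2 are 93.4% identical over 2199 aligned bases, and 20.7% of the 50-base stretches of Kng2 also occur in Kng1, so the split of counts between them is uncertain. The Kng2 to Kng1 ratio per kilobase was 0.174 ± 0.0029 with PP-MP and 0.162 ± 0.0047 in control (SD, n = 3 each; exact p = 0.1). This ratio, unlike the level of either gene, was higher in each PP-MP library than in any control library. F12, which starts the contact pathway, averaged 397 ± 15.6 CPM with PP-MP and 398 ± 47.8 CPM in control. Klkb1, plasma prekallikrein, averaged 296 ± 33.3 CPM with PP-MP and 313 ± 56.5 CPM in control, and Hrg, the histidine-rich glycoprotein, 901 ± 108 CPM with PP-MP and 883 ± 184 CPM in control. Exons of Klkb1 share 2267 of their 5249 bases with Gm45753 on the same strand, which had at most 0.801 CPM in any library. F11, which activates factor IX, was the scarcest at 19.3 ± 8.67 CPM with PP-MP and 14.8 ± 4.17 CPM in control (log2 fold change 0.38, SE 0.38).

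Among the 9 anticoagulant genes Serpinc1 separated the diets, and the libraries of Proz, Proc and the scarce Procr lay far apart within a diet. Serpinc1, antithrombin, the main inhibitor of thrombin and factor X, had 687, 638 and 813 CPM in PP-MP 1, 2 and 3, against 573, 452 and 489.9 CPM in control 1, 2 and 3. The lowest PP-MP library lay above the highest control. The mean was 713 ± 90.3 CPM with PP-MP and 505 ± 61.9 CPM in control (SD, n = 3 each), a log2 fold change of 0.50 (SE 0.18, 95% interval 0.08 to 0.92). The unadjusted p was 0.0259 and the adjusted p 0.314 by edgeR and 0.147 by DESeq2. It kept its direction when each library was left out in turn, with estimates from 0.39 to 0.61, and the adjusted p over all alternatives ran between 0.141 and 0.589. Exons of Serpinc1 overlap 2942 bases of Zbtb37 on the other strand, and whether strand was used in counting is not given in the sources used here. Zbtb37 had 16.8, 15.1 and 17.3 CPM with PP-MP, against 5.52, 8.14 and 4.01 CPM in control. Its PP-MP libraries all lay above the controls. These counts do not show how many reads of the shared bases were counted for Serpinc1, and that was not tested.

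Proz and Proc were chosen for description after their values were seen, because libraries of one diet lay far apart. They were not the only ones. F11 spanned 2.72-fold with PP-MP, as did Proc, and F8 spanned 3.24-fold in control, against 2.63-fold for Proc. Proz, a cofactor in the inhibition of factor X, had 106, 80.4 and 42.0 CPM in PP-MP 1, 2 and 3, against 276, 284 and 60.6 CPM in control 1, 2 and 3. Control 3 lay among the PP-MP libraries, so the diets overlapped. The log2 fold change was −1.45 (SE 0.61), with an unadjusted p of 0.0522 and an adjusted p of 0.364 by edgeR and 0.138 by DESeq2, and −1.85 without control 3 (edgeR adjusted p = 0.310). Proc, the protease protein C, had 114, 203 and 310.0 CPM in PP-MP 1, 2 and 3, against 296, 258 and 113 CPM in control 1, 2 and 3. PP-MP 1 and control 3 were low and the other libraries higher, and the log2 fold change was −0.09 (SE 0.47). Among the 6676 genes that average 10 CPM or more, 5.11% had a ratio of the highest to the lowest PP-MP library at least as wide as Proc, and in control 7.07% had one at least as wide as Proc and 2.41% as Proz. The median of that ratio with PP-MP was 1.27 over the 29 coagulation genes that met the same minimum and 1.29 over all genes, and in control it was 1.27 and 1.33.

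The other anticoagulant genes overlapped between diets. Serpind1, heparin cofactor II, led the group per kilobase in control and had 400.0, 372 and 431 CPM with PP-MP, against 427, 369 and 475 CPM in control (log2 fold change −0.08, SE 0.16). Serpina10, the protein Z-dependent inhibitor, had 200.4, 128 and 118 CPM with PP-MP, against 121, 108 and 126 CPM in control, with only PP-MP 1 clearly above the rest. Pros1, protein S, the cofactor of protein C, was also highest in PP-MP 1, with 103, 56.1 and 48.5 CPM with PP-MP, against 49.1, 52.7 and 59.7 CPM in control. The log2 fold change was 0.33 (SE 0.23) for Serpina10 and 0.36 (SE 0.29) for Pros1, and 0.05 and −0.04 without PP-MP 1. Tfpi, the inhibitor of the tissue factor pathway, Thbd, thrombomodulin, and Procr, the endothelial protein C receptor, are known as endothelial genes and were scarce. Tfpi averaged 3.63 ± 1.12 CPM with PP-MP and 2.64 ± 0.456 CPM in control, Thbd 1.70 ± 0.313 CPM with PP-MP and 1.97 ± 0.322 CPM in control, and Procr 0.811 ± 0.408 CPM with PP-MP and 0.384 ± 0.188 CPM in control. For Procr the interval of the log2 fold change ran from −0.18 to 2.36, and its libraries spanned 2.91-fold with PP-MP and 2.50-fold in control. With each library left out in turn, its log2 fold change ran from 0.65 to 1.57.

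**Figure D3:**
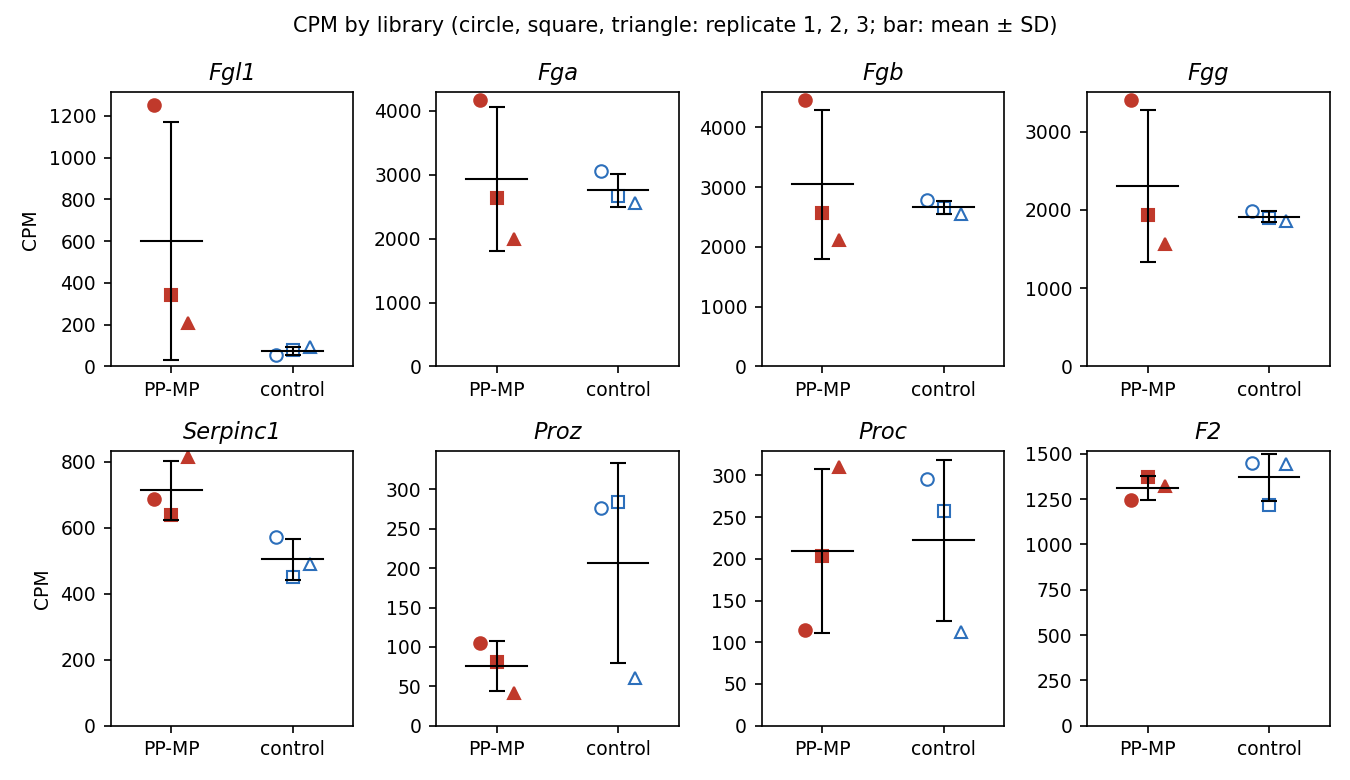
CPM in each library for Fgl1, the 3 fibrinogen chains, Serpinc1, Proz, Proc and F2, with PP-MP left of control; marker shapes give the replicate and bars the mean ± SD. PP-MP 1 is highest for Fgl1 (1253 CPM) and for the fibrinogen chains, only Fgl1 and Serpinc1 keep the diets apart, and control 3 is the low control for Proz (60.6 CPM) and Proc (113 CPM).

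The fibrinolytic genes overlapped between diets in all 6 cases. Vtn, vitronectin, which binds and stabilises the plasminogen activator inhibitor PAI-1, was the most abundant per kilobase and had 2070.1, 1716 and 1842 CPM in PP-MP 1, 2 and 3, against 1784, 1391 and 1681 CPM in control 1, 2 and 3. PP-MP 2 lay inside the control range, and the log2 fold change was 0.21 (SE 0.18). Plg, plasminogen, averaged 1856 ± 252 CPM with PP-MP and 1760.3 ± 196 CPM in control, and Serpinf2, the plasmin inhibitor alpha-2-antiplasmin, 663 ± 94.8 CPM with PP-MP and 684 ± 94.5 CPM in control. Cpb2, the carboxypeptidase TAFI, which slows clot lysis, had 326, 176 and 174 CPM with PP-MP, against 192, 179 and 203 CPM in control, so that PP-MP 1 was high and the other PP-MP libraries lay just below the controls. The activators were scarce. Plat, tissue plasminogen activator, averaged 0.761 ± 0.613 CPM with PP-MP and 0.422 ± 0.355 CPM in control, and Plau, urokinase, 1.47 ± 0.808 CPM with PP-MP and 1.33 ± 0.286 CPM in control. Their intervals were wide, −1.02 to 2.75 for Plat and −0.87 to 1.16 for Plau.

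The genes of the vitamin K cycle and Gas6 did not differ beyond the spread. Vkorc1, the reductase that warfarin inhibits, had 122, 119.5 and 151 CPM in PP-MP 1, 2 and 3, against 159, 131 and 170.2 CPM in control 1, 2 and 3. The diets overlapped (log2 fold change −0.23, SE 0.17). Exons of Vkorc1 share 401 of their 840 bases with Gm21974 on the same strand. Gm21974 had 0.159, 0.241 and 0.367 CPM with PP-MP, against 5.59, 0 and 4.38 CPM in control. How reads of the shared bases were counted was not tested. Ggcx, the carboxylase itself, averaged 21.6 ± 1.75 CPM with PP-MP and 27.4 ± 8.58 CPM in control, and Gas6, a vitamin K-dependent ligand of the TAM receptors, 43.0 ± 11.3 CPM with PP-MP and 37.2 ± 1.86 CPM in control.

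Per kilobase of exonic length, the same 6 genes had the highest means in both diets, with Hrg close behind Kng1. This ranking, like that within each role, was not repeated with coding or transcript lengths, and the order can change with the length used. With PP-MP the mean level was 1099.9 ± 465 CPM per kilobase for Fgg, 975 ± 374 for Fga, 924 ± 88.5 for Vtn, 799 ± 327 for Fgb, 500.1 ± 68.0 for Plg and 497 ± 111 for Kng1 (SD, n = 3 each). In control it was 915 ± 30.9 CPM per kilobase for Fgg, 916 ± 86.8 for Fga, 798 ± 100.3 for Vtn, 698 ± 30.0 for Fgb, 474 ± 52.9 for Plg and 471 ± 51.5 for Kng1. The means of Fgg and Fga did not differ beyond their spread between libraries in either diet. Within libraries, Fgg lay above Fga in each PP-MP library. In control the order was mixed, with Fga higher in control 1 and Fgg higher in control 2 and control 3. This order within libraries was not tested. Hrg, at 452 ± 54.4 CPM per kilobase with PP-MP and 443 ± 92.1 in control, did not differ from Plg and Kng1 beyond the spread in either diet, nor did those from each other. At the low end Plat stood at 0.122 ± 0.0982 CPM per kilobase with PP-MP and 0.0677 ± 0.0569 in control. Fgl1 was at 135 ± 128 CPM per kilobase with PP-MP and 17.0 ± 4.18 in control.

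**Figure D4:**
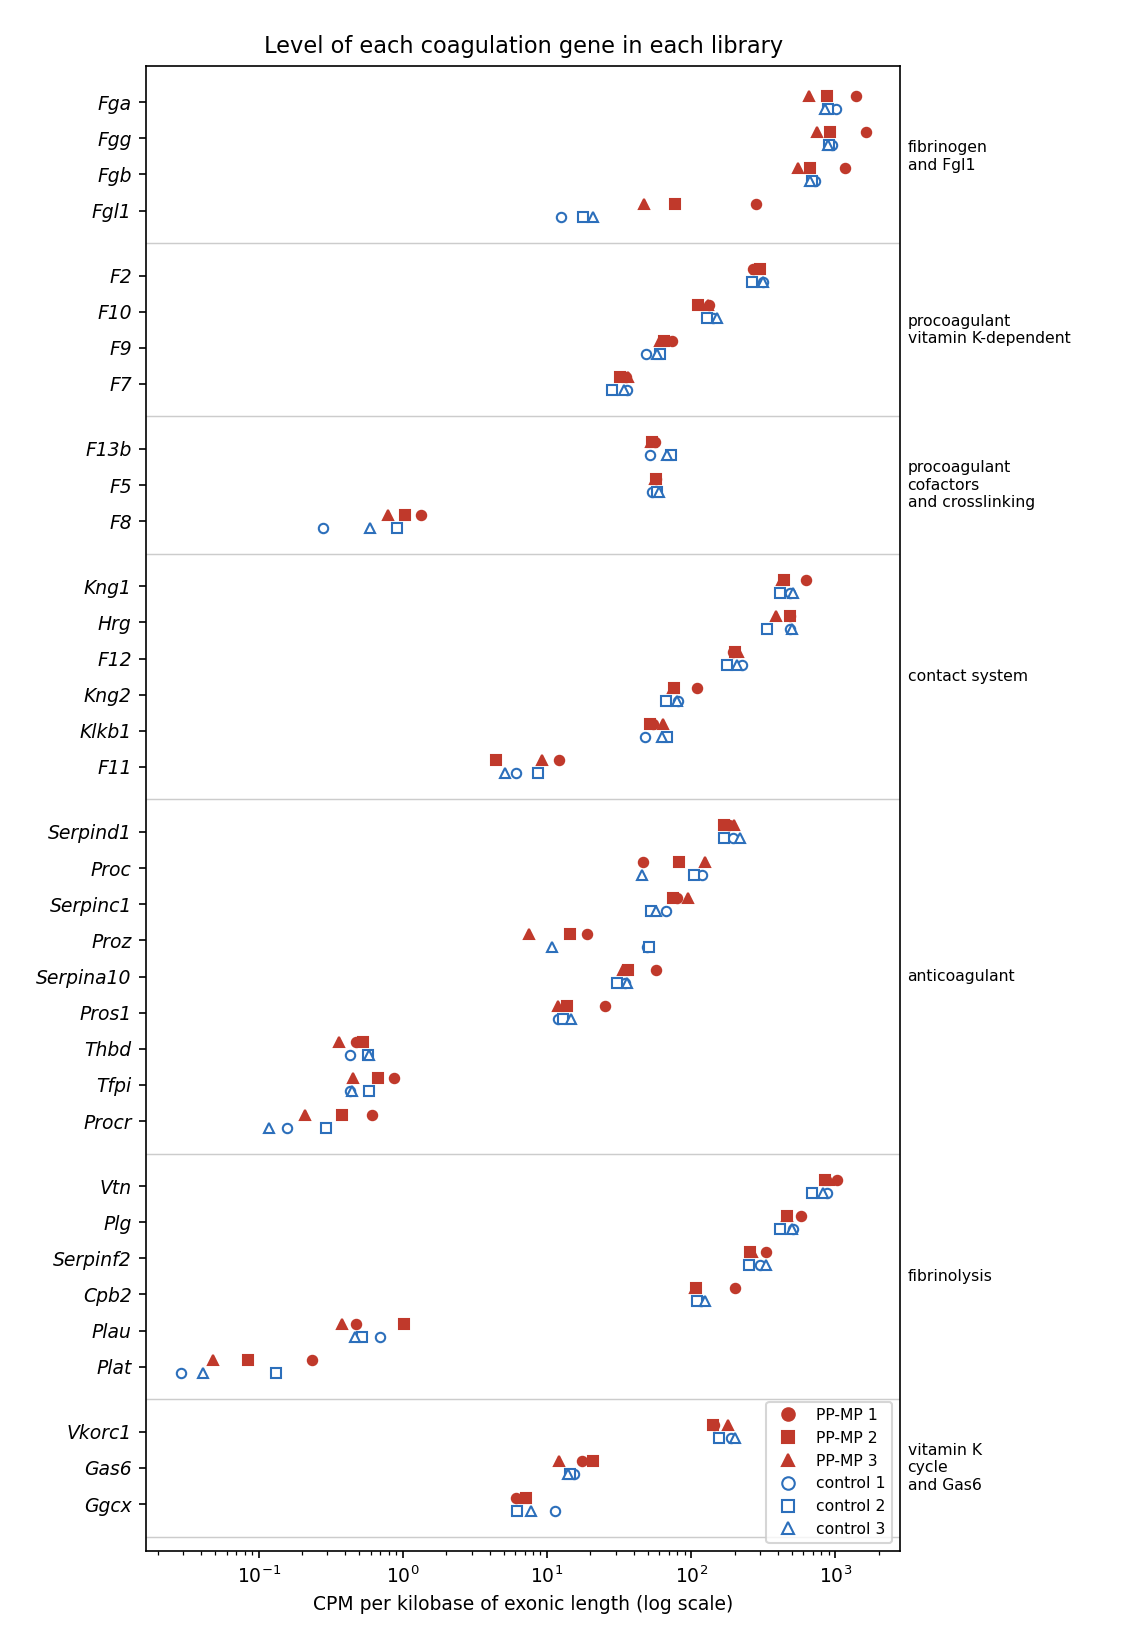
CPM per kilobase of exonic length on a log scale for each of the 35 genes in each library, ordered within each role by the control mean, with PP-MP (filled) above control (open). In control the mean runs from 0.0677 for Plat to 916 for Fga, and the filled and open symbols are fully apart only for Fgl1 and Serpinc1.

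A further 36 genes of clotting and fibrinolysis outside the 35 were also read, of which 33 were tested. By edgeR 0 were called in either direction, 5 were higher and 1 lower at an unadjusted p under 0.05, DESeq2 called 0 higher and 0 lower, and 7 were higher and 1 lower without overlap. The shares of all genes were 8.05% and 5.81% at that p, and 12.2% and 9.79% without overlap. Their median log2 fold change was 0.11. Mug1, a murinoglobulin that traps proteases, had 4121, 2901 and 3547 CPM in PP-MP 1, 2 and 3, against 2352, 2415 and 2430.2 CPM in control 1, 2 and 3. Its PP-MP libraries all lay above the controls (log2 fold change 0.55, edgeR adjusted p = 0.307). Anxa5, which binds phosphatidylserine and shields it from clotting factors, had 49.8, 58.0 and 35.4 CPM with PP-MP, against 83.8, 58.6 and 91.9 CPM in control, and lay lower without overlap (log2 fold change −0.71, edgeR adjusted p = 0.310). Mst1, a plasminogen-related growth factor, had 119, 116 and 119 CPM with PP-MP, against 103, 80.1 and 87.9 CPM in control. Plgrkt, a plasminogen receptor, had 2.46, 3.31 and 2.44 CPM with PP-MP, against 2.09, 1.08 and 1.19 CPM in control. In both the PP-MP libraries lay above the controls. Tfpi2, a relative of Tfpi, had 0.892, 1.25 and 0.822 CPM with PP-MP, against 0.344, 0.547 and 0.593 CPM in control, again without overlap. Fap, whose soluble form cleaves alpha-2-antiplasmin, was near 0, with 0.198, 0.241 and 0.155 CPM with PP-MP, against 0, 0 and 0.0574 CPM in control.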

How the data were processed

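The authors deposited unnormalised counts of reads per gene, as a table and as 6 files that repeat its columns. Per the labels' protocols, poly(A) RNA of total liver RNA went into directional libraries; per the submitters' processing notes, bcl2fastq and GRCm39 were used, without versions. For aligner, counter, strand setting and annotation names and settings were not given in the sources used here. All 35 genes, lists and left-out libraries were chosen with earlier results of these data known. Counts were filtered (filterByExpr), scaled by TMM and tested with edgeR 4.0.16 (robust quasi-likelihood, two-sided, Benjamini-Hochberg over 18284 genes, threshold 0.05) in R 4.3.3; a standard error is the fold change over the root of F. DESeq2 1.42.0, limma-voom (limma 3.58.1), other scalings and filters, a replicate block and left-out libraries were alternatives. Separation was read from CPM. Exonic lengths and overlaps came from GENCODE M21 (GRCm38), a different build from that of the counts, so coordinates are given only for the printed promoter sequences. The fit was tested on simulated data, with a first and a second way of setting the dispersion, the second added after the first result was seen; in both, most changes of 2-fold or less were missed, so a count of 0 called does not show that levels were equal.

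Values per library were given for the fibrinogen chains, for genes with an unadjusted p under 0.05 or no overlap, for the highest gene per kilobase in each role, for the 6 genes of smallest p among the other coagulation genes and for the 3 most abundant acute phase genes by the mean over 6 libraries. Hamp, Cpb2, Pros1 and Serpina10, like Proz and Proc, were added outside the rule after values were seen, as were the spread comparison with its minimum of 10 CPM, the count of genes highest in PP-MP 1, the printed 150 bases and the 50-base stretches. Tf, a hepatocyte marker, was not matched. The comparison is unpaired: deviations of same-numbered libraries correlated at −0.0662, −0.0872 and 0.0470. No 2 libraries of a diet were duplicates (chi-square per degree of freedom 154 to 928).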

Additional observations from a re-analysis of the deposited data

How the results depend on the processing

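Across the alternatives, 429 of 488 fold changes of the 35 genes kept direction and side of the threshold, 58 changed sign and 1, Fgl1 by DESeq2, passed it; 13 genes kept their sign throughout, among them Fgl1, Serpinc1 and Proz, and 22 did not. Without control 2 and PP-MP 1 together, the log2 fold changes became −0.28 for Fga, −0.19 for Fgb, −0.14 for Fgg, −0.023 for F7, 0.0064 for F5, 0.058 for Klkb1, −0.21 for Kng1, −0.10 for Kng2, −0.18 for Hrg, −0.011 for Serpina10, 0.33 for Proc, −0.054 for Pros1, −0.13 for Plg and −0.17 for Cpb2. Under library totals they became 0.17 for F2, 0.068 for F10, 0.23 for F5, 0.23 for F12, 0.15 for Klkb1, 0.15 for Serpind1, 0.13 for Proc, 0.030 for Thbd and 0.19 for Serpinf2. Without a filter they became 0.039 for F5 and 0.040 for F12. With a mean CPM of at least 1 they became 0.034 for F5 and 0.033 for F12. With limma-voom they became 0.00045 for F5 and 0.0078 for F12. With each library left out in turn, the fold change ran between −0.26 and 0.30 for Fga, −0.19 and 0.40 for Fgb, −0.13 and 0.48 for Fgg, −0.029 and 0.057 for F5, −0.076 and 0.094 for F12, −0.20 and 0.043 for Klkb1, −0.12 and 0.18 for Kng1, −0.018 and 0.28 for Kng2, −0.12 and 0.16 for Hrg, −0.16 and 0.035 for Serpind1, −0.48 and 0.21 for Proc, −0.040 and 0.56 for Pros1, −0.042 and 0.15 for Plg, −0.014 and 1.82 for Plat, −0.40 and 0.40 for Plau, −0.17 and 0.077 for Serpinf2 and −0.13 and 0.39 for Cpb2. The count of all genes called, 2, became 1 with library totals, 777 with DESeq2, 1 with limma-voom and 0 to 92 with a library left out (92 without control 2). Coagulation genes called higher numbered 1 with DESeq2 and 0 otherwise. Those higher at an unadjusted p under 0.05, 2 of 35, became 5 with library totals and 1 without control 2 and PP-MP 1 together. With a library left out they ran from 1 to 4. Over all genes, 3072 of 18284 were higher at that p with library totals, and 1917 of 18414 without control 2 and PP-MP 1 together. Without PP-MP 3, which gave the 4, 1371 of 18756 genes were. Those lower, 0 of 35, became 1 with DESeq2 size factors and with DESeq2, and 0 to 1 with a library left out. Over all 18284 genes, 1176 were lower with DESeq2 size factors and 1298 with DESeq2. Coagulation genes higher without overlap, 2 of 35, became 8 with library totals and 7 without control 2 and PP-MP 1 together. With a library left out they ran from 2 to 8. Over all genes, 4477 of 18284 were higher without overlap with library totals, and 5335 of 18414 without control 2 and PP-MP 1 together. Without PP-MP 3, which gave the 8 of the left-out libraries, 3597 of 18756 genes were. Coagulation genes lower without overlap, 0 of 35, became 9 without control 2 and PP-MP 1 together and 0 to 4 with a library left out. Over all genes, 4499 of 18414 were lower without overlap in the former setting. Without control 2, which gave the 4, 3718 of 19277 were. Fewer libraries make separation easier. The median of the 35, 0.09, became 0.33 with library totals and −0.064 without control 2 and PP-MP 1 together. With the replicate block 0 of all genes were called and F12 was at 0.0060. With it, 1 coagulation gene was lower at an unadjusted p under 0.05, as were 719 of all 18284 genes. The labels do not say that numbers pair libraries, and the block made no other call among the 35. The cause of the other changes was not tested. Library totals move the median of all genes to 0.26, so that the coagulation genes' median of 0.33 is read relative to it. What share of each interval comes from depth was not tested, and 3 libraries per diet limit all of them.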
